A study of Sus scrofa with 24 samples.

Results

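The aryl hydrocarbon receptor, its dimer partner and the CYP1 enzymes it controls were examined in the livers of pigs treated with steroid esters. The genes were taken as the 7 symbols AHR, ARNT, CYP1A1, CYP1A2, CYP1B1, TIPARP and NQO1, looked up in the deposited gene table. Of these, 6 had a row among the 13463 genes, all 6 passed the filter on low counts, and TIPARP was not analysed here. CYP1A1 was selected on its fold change between Sustanon-treated and control pigs, where its level was lower, so its values in the comparisons with Sustanon are given as a description, with no test. The other genes belong to the same pathway.

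AHR is a ligand-activated transcription factor of the bHLH-PAS family. It waits in the cytosol in a complex with heat shock proteins, moves to the nucleus when it binds planar aromatic compounds or tryptophan metabolites, and there pairs with ARNT to switch on CYP1A1, CYP1A2, CYP1B1, TIPARP and, together with NRF2, NQO1. In the liver this set of genes is known for the oxidation of xenobiotics, of estrogens and of the boar taint compound skatole.

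RNAseq libraries came from liver of 24 fattening pigs, hybrids of commercial lines, with 1 library per pig. Sustanon, a mixture of testosterone esters, was given by intramuscular injection (4 mg/kg b.w.) to 3 castrated boars, 3 sows and 2 uncastrated boars. Myodin, a nandrolone ester, was given in the same way (5 mg/kg b.w.) to 2 castrated boars, 3 sows and 3 uncastrated boars, and the controls were 3 castrated boars, 3 sows and 2 uncastrated boars. The females carry the label sow, the term kept here, and were gilts in the study, that is without a litter so far. Injections were repeated every few days until shortly before slaughter. Treatment groups were housed in separate pens, so that pen and treatment cannot be told apart.

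Libraries held between 9267780 and 14017276 counted reads, with a median of 10260005. The 4 hepatocyte markers measured, ALB, APOA1, SERPINA1 and TTR, summed to between 78872 and 185915 TPM in the 24 libraries, where TPM is a transcript's length-scaled share of its library. Y-linked genes went against the labelled class in 3 libraries, all of them controls. KDM5D, a Y-linked histone demethylase, had 0 counts in control castrated boar 15, 35 in control sow 16 and 95 in control sow 18, where the other sows had 0 and the other males at least 36. EIF1AY had 1, 476 and 434 counts in the same libraries, where the other sows had at most 3 and the other males at least 327. These are called here the libraries labelled castrated boar 15, sow 16 and sow 18, and fitted differences of the 6 genes that rest on them are given with and without them. Without them the control sows are 1 library, which is then assumed to vary like the other groups in values by class. The table's column for Sustanon sow 6 carries the group code of the Sustanon castrated boars, and it had 0 counts of KDM5D and of EIF1AY, within the range of the other sows. In whole liver, fewer cells of a type and less RNA per cell cannot be told apart.

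Sustanon-treated pigs had more AHR transcript and less NQO1 transcript than controls, while the partner ARNT was at similar levels in both. AHR rose 2.67-fold, with a log2 fold change of 1.42 (SE 0.28, n = 8 and 8), and NQO1 fell by 1.34 on the log2 scale (SE 0.32). CYP1A1, picked for this, was lower by a log2 fold change of -1.81 (SE 0.43), and CYP1A2 had a log2 fold change of -1.91 (SE 0.63) that did not pass the test. A gene counted as differentially expressed (DEG) where its log2 fold change reached 1 in either direction and edgeR's quasi-likelihood test gave an adjusted p below 0.05. With CYP1A1 set apart, 2 of the other 5 genes were DEGs, where 1.56% of the 8279 genes tested were, 84 of them higher (1.01%) and 45 lower (0.544%). These genes, and the gene lists used below, were chosen with earlier results of these data known, so such counts are descriptions.

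**Figure D1:**
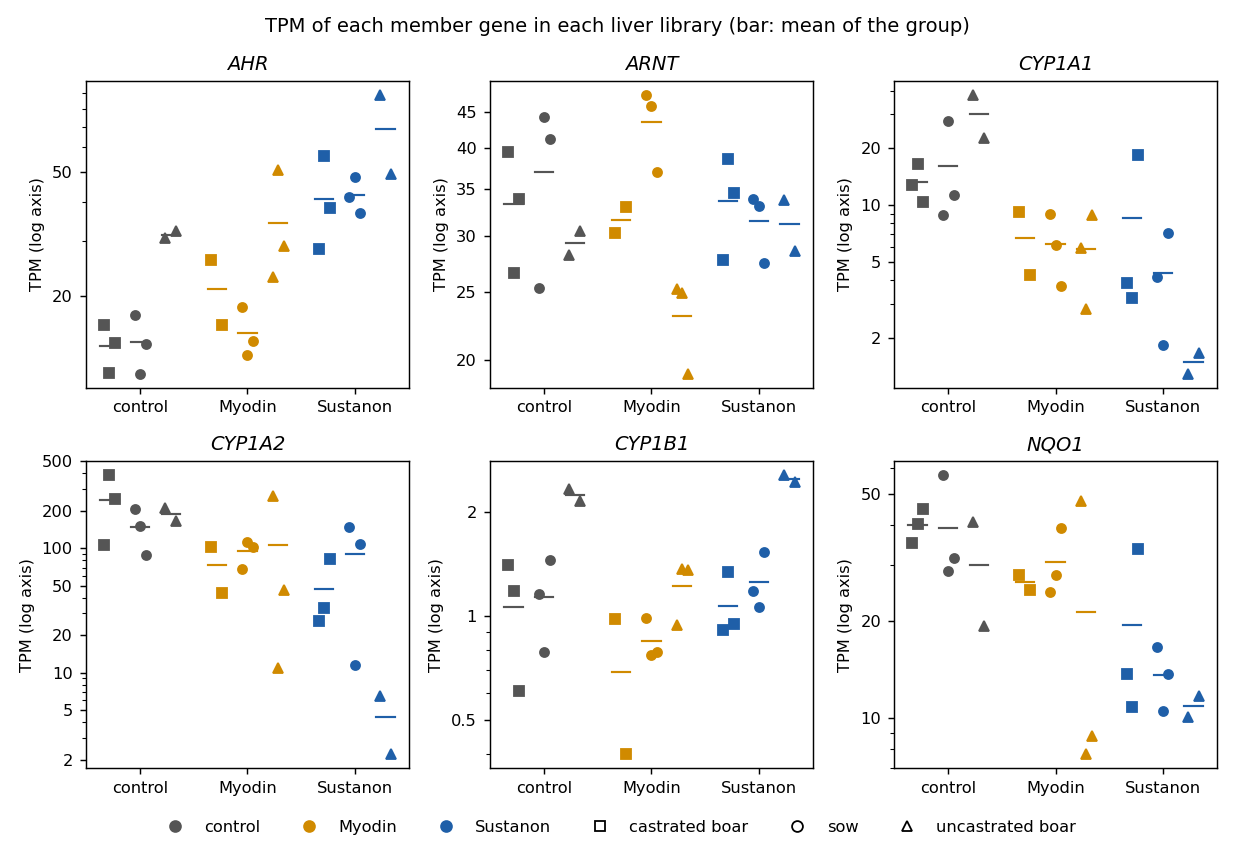
Level of the 6 genes in each of the 24 libraries, in TPM on log axes that differ between panels; colours mark treatments, symbols mark classes, and the bar is the mean of the 2 or 3 libraries of a group. AHR lies at 28.4 TPM or more in every Sustanon library, against 11.2 to 17.3 TPM in castrated boars and sows of the control group. The control uncastrated boars lie at 30.7 and 32.3 TPM.

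The receptor itself, AHR, is annotated on chromosome 9 of Sscrofa11.1, at chr9:86511866-86555950. In control pigs it was at 16.1, 11.3 and 14.1 TPM in the 3 castrated boars, at 17.3, 11.2 and 13.97 TPM in the 3 sows and at 30.7 and 32.3 TPM in the 2 uncastrated boars. In Sustanon pigs it was at 28.4, 56.4 and 38.4 TPM in castrated boars, at 41.5, 48.3 and 36.8 TPM in sows, and at 88.5 and 49.3 TPM in uncastrated boars. Hence 7 of the 8 Sustanon libraries lay above every control, and the remaining one, castrated boar 1, lay above every control but the uncastrated boars. Within each labelled class all Sustanon pigs were above all controls, with fitted log2 differences of 1.47 (SE 0.33) in castrated boars, 1.63 (SE 0.34) in sows and 1.19 (SE 0.40) in uncastrated boars. With the doubted controls left out it was 1.54 (SE 0.39) in castrated boars and 2.06 (SE 0.53) in sows. The adjusted p of the difference over all classes was 0.0114 by edgeR.

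The AHR call was kept when any of the 24 libraries was left out, with log2 fold changes between 1.25 and 1.57 and an adjusted p of at most 0.0303. Without the 3 doubted controls the log2 fold change was 1.33 and the adjusted p 0.116 by edgeR, in a fit where 0 of all genes were DEGs and 1199 had an unadjusted p under 0.05. The same 21 libraries fitted with class as a covariate, a setting chosen after seeing the data, gave 1.58 with an adjusted p of 0.00525 for AHR and 118 DEGs in all.

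Ordered by level, the AHR values ran by class and treatment, with overlap between neighbours. Castrated boars and sows had 13.997 ± 2.46 TPM (SD, n = 6) in the control group and 17.6 ± 5.15 TPM (SD, n = 5) in the Myodin group, and their ranges overlapped. Uncastrated boars came next, at 30.7 and 32.3 TPM in controls and at 23.03, 50.7 and 29.0 TPM with Myodin, again with overlap between the 2 groups. Castrated boars and sows given Sustanon had 41.6 ± 9.71 TPM (SD, n = 6), a range of 28.4 to 56.4 TPM that holds both uncastrated controls. The 2 uncastrated boars given Sustanon included the highest library of all 24.

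The partner ARNT is annotated at chr4:98333431-98390012. It was at 25.3 to 44.2 TPM in controls, with a median of 32.2, and at 27.5 to 38.5 TPM in Sustanon pigs, with a median of 33.4. The groups overlapped throughout, and the log2 fold change was -0.06 (SE 0.15, 95% interval -0.36 to 0.25, adjusted p = 0.886 by edgeR), or -0.01 (adjusted p = 0.984) without the doubted controls. By class these controls moved it from -0.095 (SE 0.17) to -0.024 (SE 0.18) in castrated boars and from -0.13 (SE 0.17) to -0.34 (SE 0.22) in sows when left out.

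The amount of AHR transcript per ARNT transcript was therefore higher with Sustanon. In castrated boars and sows the ratio of their TPM was 0.42 ± 0.14 (SD, n = 6) in controls, 0.48 ± 0.22 (SD, n = 5) with Myodin and 1.27 ± 0.18 (SD, n = 6) with Sustanon. The highest control ratio in these classes was 0.68 and the lowest Sustanon ratio 1.02. Without the doubted libraries the control ratio was 0.36 ± 0.095 (SD, n = 3), with a highest value of 0.43. In uncastrated boars the ratio was 1.09 and 1.06 in controls, 0.91, 2.04 and 1.52 with Myodin, and 2.62 and 1.73 with Sustanon. Controls had more ARNT than AHR transcript in all castrated boars and sows, and slightly less in both uncastrated boars.

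CYP1A1, the enzyme most often read as a sign of AHR activity, lies at chr7:58802887-58809155. It was at 12.8, 16.5 and 10.3 TPM in control castrated boars, at 8.82, 27.7 and 11.3 TPM in control sows and at 37.9 and 22.5 TPM in control uncastrated boars. With Sustanon it was at 3.90, 3.23 and 18.4 TPM in castrated boars, at 4.18, 1.83 and 7.11 TPM in sows, and at 1.29 and 1.67 TPM in uncastrated boars. Castrated boar 3 was the exception among the Sustanon pigs, inside the control range, and the other 7 lay below every control. Uncastrated boars held both ends of the range, with the highest of the controls and the 2 lowest of the Sustanon pigs. Fitted by class, the log2 differences from controls were -0.79 (SE 0.59) in castrated boars, -1.77 (SE 0.61) in sows and -4.28 (SE 0.84) in uncastrated boars. Without the 3 doubted controls the value was -0.90 (SE 0.65) in castrated boars, -2.52 (SE 0.76) in sows and -2.13 over all classes. Left out in turn, the libraries moved the overall log2 fold change between -2.41 and -1.63.

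CYP1A2, the liver's own CYP1 enzyme, which oxidises caffeine and skatole, is the neighbour of CYP1A1 at chr7:58779529-58786155, with 16731 bases between the 2 genes. It was at 105, 386 and 247 TPM in control castrated boars, at 205, 152 and 88.1 TPM in control sows and at 209 and 167 TPM in control uncastrated boars. With Sustanon it was at 25.9, 32.8 and 82.0 TPM in castrated boars, at 149, 11.5 and 108 TPM in sows, and at 6.55 and 2.22 TPM in uncastrated boars. Here 6 of 8 Sustanon libraries were below every control, while sows 4 and 6 lay inside the control range. The log2 fold change of -1.91 had a 95% interval from -3.15 to -0.68 and an adjusted p of 0.0762 by edgeR. Without the 3 doubted controls it was -1.92 with an adjusted p of 0.220 by edgeR. Without Sustanon sow 4 it was -2.39 and a DEG, with an adjusted p of 0.0319. It was a DEG also by DESeq2, at -1.92 with an adjusted p of 0.0409, and by limma on the log2 TPM, at -2.67 with an adjusted p of 0.0204. CYP1A2 was not a DEG in 9 of the 11 alternative settings, nor in 23 of the 24 fits with 1 library left out.

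How reads shared by CYP1A1 and CYP1A2, which are close relatives, were counted is not given in the sources used here, so the split between them is uncertain. The ratio of CYP1A2 to CYP1A1, in TPM, was between 5.49 and 23.996 in controls, between 3.90 and 44.2 with Myodin and between 1.33 and 35.7 with Sustanon. These ranges overlap, with medians of 8.01, 10.7 and 6.47.

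NQO1, a quinone reductase that answers both to AHR and to the oxidative stress factor NRF2, is annotated at chr6:17292962-17302593. Controls had 35.0, 40.3 and 44.8 TPM in castrated boars, 57.1, 28.6 and 31.6 TPM in sows and 40.7 and 19.4 TPM in uncastrated boars. Sustanon pigs had 13.7, 10.9 and 33.7 TPM in castrated boars, 16.7, 10.5 and 13.7 TPM in sows, and 10.1 and 11.7 TPM in uncastrated boars. As for CYP1A1, only castrated boar 3 among the Sustanon pigs reached into the control range, and the other 7 lay below every control. The adjusted p was 0.0169 by edgeR, and NQO1 stayed a DEG whichever library was left out, with log2 fold changes from -1.59 to -1.18 and an adjusted p of at most 0.0421. By class, the log2 difference was -1.19 (SE 0.53) in castrated boars, -1.48 (SE 0.53) in sows and -1.42 (SE 0.66) in uncastrated boars. Without the 3 doubted controls these were -1.06 (SE 0.58) in castrated boars and -0.92 (SE 0.71) in sows. The overall value was then -1.09 with an adjusted p of 0.154, and in the same 21 libraries with class as a covariate -1.17 with an adjusted p of 0.0619, by edgeR, so that the call did not hold there.

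CYP1B1, which hydroxylates estrogens mostly outside the liver, had the lowest level of the 6 genes, with a median of 1.17 TPM over the 24 libraries and 26 to 131 counts per library. It was at 0.61 to 2.33 TPM in controls and at 0.91 to 2.55 TPM with Sustanon. The log2 fold change was 0.14 (SE 0.27, adjusted p = 0.837 by edgeR), or -0.00387 (adjusted p = 0.999) without the doubted controls. Leaving these out moved the difference by class from -0.084 (SE 0.34) to -0.33 (SE 0.34) in castrated boars and from 0.23 (SE 0.33) to 0.82 (SE 0.45) in sows. Its highest values were those of uncastrated boars, at 2.33 and 2.15 TPM in controls and 2.55 and 2.44 TPM with Sustanon, where the castrated boars and sows of the same groups reached at most 1.53 TPM. With Myodin the 3 uncastrated boars had 0.94, 1.37 and 1.36 TPM.

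**Figure D2:**
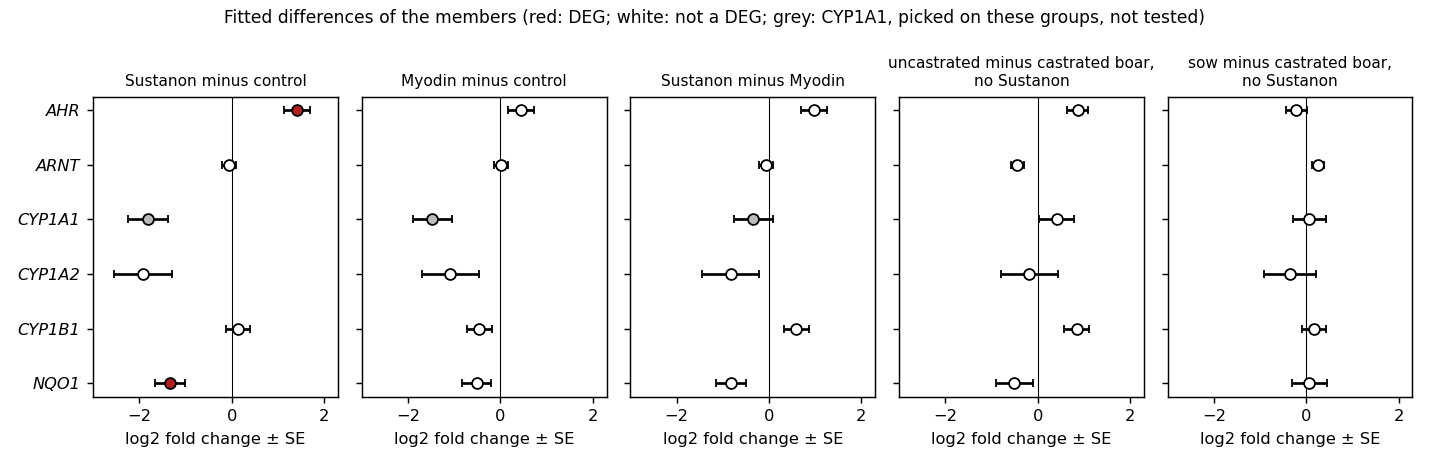
Fitted log2 fold change of the 6 genes in 5 comparisons, with bars of 1 standard error; red points are DEGs, white points are not, and grey points are CYP1A1 against the groups on which it was picked, given with no test. Red points are found for AHR and NQO1 between Sustanon and control, and in no other panel.

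Myodin pigs were compared with the same 8 controls, so these values are not independent of those for Sustanon. No member was a DEG by edgeR, and neither was any other of the 8279 genes (0%), with 597 genes at an unadjusted p under 0.05 and 0 DEGs by DESeq2. CYP1A1 was picked on these controls, so its log2 fold change of -1.47 (SE 0.42) is a description. In TPM it was at 9.16 and 4.30 in castrated boars, 8.93, 6.13 and 3.73 in sows, and 5.96, 2.82 and 8.86 in uncastrated boars. Of these, 5 of 8 were below every control, and the highest Myodin value of 9.16 was above only 1 control, the library labelled sow 16. In CPM, that is counts scaled to library size and to a normalization factor per library (TMM), all 8 Myodin libraries were below every control. The highest value was 20.7, against the 20.9 of the library labelled sow 16, which had the lowest TMM factor of the 24, 0.871. By library size alone, Myodin uncastrated boar 24 lay above that library. Without the doubted libraries the log2 fold change of CYP1A1 was -1.78.

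The other 5 genes had adjusted p of 0.739 or more in Myodin pigs, and the uncastrated boars differed among themselves. CYP1A2 was at 264 TPM in uncastrated boar 22 but at 11.01 and 45.8 TPM in uncastrated boars 23 and 24, and its log2 fold change was -1.08 (SE 0.61, adjusted p = 0.739). NQO1 was at 47.5 TPM in boar 22 and at 7.72 and 8.81 TPM in boars 23 and 24, which were the lowest NQO1 values of all 24 libraries, and its log2 fold change was -0.52 (SE 0.31, adjusted p = 0.761). AHR was highest of the Myodin pigs in boar 23, at 50.7 TPM, and its log2 fold change was 0.45 (SE 0.27, adjusted p = 0.771). With each library left out this AHR value lay between 0.20 and 0.60. CYP1B1 had -0.46 (SE 0.27, adjusted p = 0.754) and ARNT 0.01 (SE 0.15, adjusted p = 0.999), all by edgeR. Without the doubted controls the log2 fold changes were 0.36 for AHR, 0.05 for ARNT, -1.09 for CYP1A2, -0.59 for CYP1B1 and -0.26 for NQO1, and again 0 genes were DEGs. By class and without these controls, the differences of Myodin pigs from control sows changed sign for NQO1, from -0.37 (SE 0.52) to 0.19 (SE 0.74), and for CYP1B1, from -0.37 (SE 0.34) to 0.22 (SE 0.44). In sows the value of AHR moved from 0.12 (SE 0.33) to 0.56 (SE 0.49), that of ARNT from 0.29 (SE 0.17) to 0.076 (SE 0.23), that of CYP1A1 from -1.29 (SE 0.60) to -2.04 (SE 0.76) and that of CYP1A2 from -0.67 (SE 0.84) to -0.59 (SE 1.22). In castrated boars the 6 values moved by less than their standard errors, to between -1.77 for CYP1A2 (SE 1.12) and 0.66 for AHR (SE 0.41).

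Sustanon was also compared directly with Myodin, where 0.205% of genes, 17 in number, were DEGs and none of the 5 tested members was. AHR had a log2 fold change of 0.97 (SE 0.28), just under the threshold of 1, with an adjusted p of 0.0792 by edgeR. It was a DEG with class as a covariate, at 1.13 with an adjusted p of 0.00395, and in castrated boars and sows alone, at 1.22 with an adjusted p of 0.00467. It was one too without Myodin uncastrated boar 23, at 1.22 with an adjusted p of 0.00724, and without Sustanon castrated boar 1, at 1.04 with an adjusted p of 0.0441. In castrated boars and sows the Myodin libraries ended at 26.0 TPM and the Sustanon libraries began at 28.4 TPM. NQO1 had -0.82 (SE 0.32, adjusted p = 0.176), CYP1A2 -0.83 (SE 0.61, adjusted p = 0.491), CYP1B1 0.59 (SE 0.27, adjusted p = 0.242) and ARNT -0.06 (SE 0.15, adjusted p = 0.866), by edgeR. The CYP1A2 value lay between -1.31 and -0.45 with each library left out. For CYP1A1 the log2 difference between the treatments was -0.34 (SE 0.42), with medians of 3.57 TPM for Sustanon and 6.05 TPM for Myodin. This difference lay between -0.95 and -0.19 with each library left out.

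Whether boars with testes differ from castrated boars in these genes was asked in the 16 libraries without Sustanon, with treatment as a term. None of the 6 genes was a DEG, where 19 of 8306 genes, or 0.229%, were. AHR had the log2 difference with the smallest p, 0.87 (SE 0.23, adjusted p = 0.114 by edgeR), and 4 of 5 uncastrated boars in TPM, or 3 of 5 in CPM, were above all 5 castrated boars. It was a DEG without Myodin uncastrated boar 22, with a log2 difference of 1.07 and an adjusted p of 0.0357. CYP1B1 had 0.84 (SE 0.27, adjusted p = 0.177) and ARNT -0.44 (SE 0.14, adjusted p = 0.174). The 5 uncastrated boars had 25.6 ± 4.27 TPM of ARNT (SD) and the 5 castrated boars 32.6 ± 4.77 TPM, or 32.3 ± 5.45 TPM (n = 4) without the library labelled castrated boar 15. For ARNT all 5 uncastrated boars were below all 5 castrated boars in CPM, with 69.3 against 69.5 at the nearest, but 3 of 5 in TPM. By library size alone, without TMM factors, control uncastrated boar 27 lay above control castrated boar 14 for ARNT. For CYP1B1, 4 of 5 uncastrated boars were above all castrated boars in CPM and 2 of 5 in TPM. CYP1A1, CYP1A2 and NQO1 had log2 differences of 0.42 (SE 0.38), -0.18 (SE 0.61) and -0.50 (SE 0.41), with adjusted p of 0.661, 0.926 and 0.612 by edgeR. With each library left out CYP1A1 spanned 0.15 to 0.73, CYP1A2 -0.91 to 0.16 and NQO1 -1.04 to -0.32. Their spread among uncastrated boars was wide, with 2.82 to 37.9 TPM for CYP1A1 and 11.01 to 264 TPM for CYP1A2. Castrated boar 15 is in this comparison, and without the 3 doubted libraries 5 genes were DEGs, none of them a member. The log2 differences were then 0.87 for AHR (adjusted p = 0.155), 0.72 for CYP1B1 (adjusted p = 0.293), -0.38 for ARNT (adjusted p = 0.201), 0.30 for CYP1A1, -0.066 for CYP1A2 and -0.43 for NQO1, by edgeR.

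None of the 6 genes was a DEG between sows and castrated boars without Sustanon. The log2 differences lay between -0.35 for CYP1A2 (SE 0.57) and 0.25 for ARNT (SE 0.13), and no other gene was a DEG either (0%) by edgeR, where 394 genes had an unadjusted p under 0.05 and DESeq2 called 4. All 3 doubted libraries are in this comparison. Without them the AHR difference was -0.40 instead of -0.21 (adjusted p = 0.659), and that of ARNT was 0.45 (adjusted p = 0.389, by edgeR). CYP1A1 then had 0.28, CYP1A2 -0.17, CYP1B1 -0.041 and NQO1 0.0018. None of the 6 was a DEG there, where 11 genes were.

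**Figure D3:**
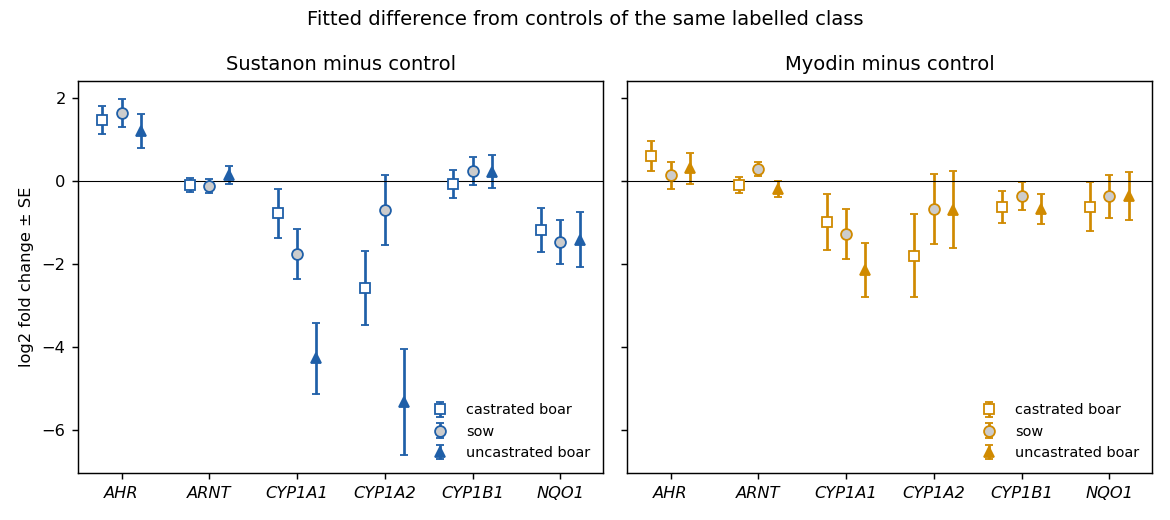
Fitted log2 difference between treated pigs and controls of the same labelled class, with bars of 1 standard error, for Sustanon on the left and Myodin on the right. For AHR the 3 Sustanon points lie from 1.19 to 1.63, while for CYP1A1 and CYP1A2 the uncastrated boars lie lowest, at -4.28 and -5.33. Without the doubted controls the AHR values were 1.54 in castrated boars and 2.06 in sows.

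The effect of Sustanon was then compared between uncastrated boars and the mean of the other classes. For CYP1A2 the log2 difference from controls was -2.58 (SE 0.89) in castrated boars, -0.70 (SE 0.84) in sows and -5.33 (SE 1.27) in uncastrated boars. The difference between the effects was -3.69 (SE 1.31), with an adjusted p of 0.483 by edgeR, so it was not a DEG, and 0.0604% of genes were in this comparison. Without the doubted controls the effect on CYP1A2 was -2.54 (SE 1.001) in castrated boars and -0.63 (SE 1.22) in sows, and the difference between the effects was -3.75 (adjusted p = 0.683 by edgeR). For CYP1A1 the corresponding difference was -3.001 (SE 0.91), in libraries on which the gene had been picked. For AHR it was -0.36 (SE 0.46, adjusted p = 0.877), for NQO1 -0.08 (SE 0.75, adjusted p = 0.987), for CYP1B1 0.14 (SE 0.46, adjusted p = 0.956) and for ARNT 0.25 (SE 0.24, adjusted p = 0.831). With 2 uncastrated boars in each group, an AHR difference from -1.26 to 0.55 lies within the 95% interval. Without the doubted controls the differences between the effects were -0.61 for AHR, -0.43 for NQO1, -0.029 for CYP1B1, 0.32 for ARNT and -2.57 for CYP1A1, and 0 genes were DEGs.

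**Figure D4:**
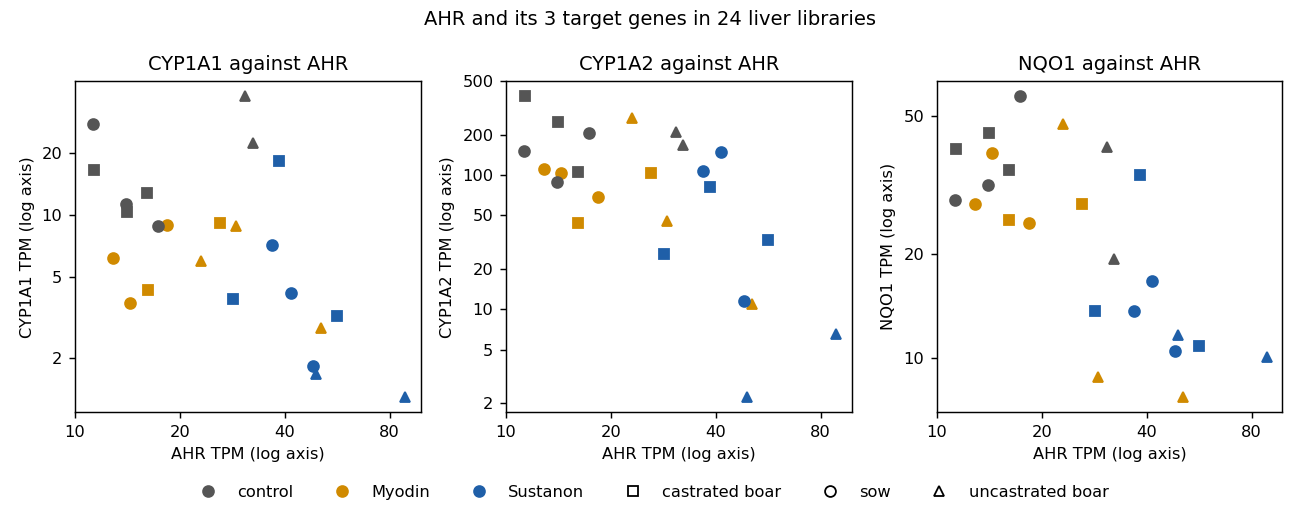
Level of CYP1A1, CYP1A2 and NQO1 against that of AHR in the 24 libraries, all in TPM on log axes. The library with the most AHR, at 88.5 TPM, is a Sustanon uncastrated boar and lies low for all 3 targets.

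Receptor and targets were also set against each other within each treatment, over 8 libraries and in log2 CPM, which gave 9 relations. In Sustanon pigs Pearson's r of AHR was -0.64 with CYP1A1, -0.44 with CYP1A2 and -0.56 with NQO1, and Spearman's rho was -0.76, -0.45 and -0.76. CYP1A1 was picked on these pigs and the controls, so its r there is a description, and the other 7 relations were tested. For CYP1A2 and NQO1 in Sustanon pigs the exact two-sided permutation p was 0.280 and 0.165 for r and 0.268 and 0.0368 for rho. No relation passed the adjustment over the 7, with a smallest adjusted p of 0.249 for r and of 0.257 for rho. Without the 2 pigs farthest from the median of AHR the 3 values of r were -0.78, -0.45 and -0.81. In Myodin pigs r was -0.07, -0.62 and -0.75 in the same order, and -0.75 for NQO1 had an exact p of 0.0356 and an adjusted p of 0.249. Without the 2 farthest pigs these became 0.83, -0.01 and -0.64. In controls, where the 2 uncastrated boars stood apart in AHR, r was 0.26 with CYP1A1, 0.01 with CYP1A2 and -0.20 with NQO1. Without the 2 farthest libraries these became -0.82, 0.13 and 0.79. The values that changed sign or fell away rest on those libraries. No correlation was computed over the 5 controls that remain without the doubted libraries.

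The gene whose pattern was most like that of CYP1A1 over the 24 libraries was CYP1A2, which ranked 1 of the 8279 genes tested by Pearson's r of log2 CPM, at 0.78. Once the means of the 9 groups of treatment and class had been subtracted, r was 0.51. NQO1 had 0.60, and 0.27 within groups, while AHR had -0.60, and -0.30 within groups. Among genes outside the set, the 5 highest were ARL6IP1 (0.77), CTCF (0.75), POLE3 (0.72), ID4 (0.72) and HSD17B11 (0.71), and within groups they had between 0.49 and 0.58. The 5 lowest were MAGED1 (-0.79), VPS13D (-0.78), SLC35E2B (-0.77), SLC25A21 (-0.77) and ACSM4 (-0.75), and within groups they had between -0.74 and -0.42. In the 21 libraries without the doubted controls CYP1A2 ranked 2, at 0.78, behind ARL6IP1 at 0.79, and AHR had -0.58 and NQO1 0.61. All these libraries share the same treatments, and no test is attached to the values.

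The other genes of the pathway were taken from 7 lists, of which 37 genes were tested. In Sustanon against control, 1 was a DEG with a higher level and 2 with a lower level, where 1.01% and 0.544% of all genes tested were, and in the other 5 comparisons, with 0% to 0.229% of all genes, 0 were DEGs. None of these 3 was a DEG without the doubted controls, as for all genes. The 3 log2 fold changes were then 1.13 for TDO2, -1.49 for KYAT1 and -1.43 for FMO5, with adjusted p from 0.116 to 0.150 by edgeR. With class as a covariate in the same 21 libraries, where 118 genes were DEGs, KYAT1 was one at -1.65 (adjusted p = 0.0340) and FMO5 at -1.61 (adjusted p = 0.00525), and TDO2 had 1.10 (adjusted p = 0.0978), by edgeR. Values for the other list genes, and for markers other than SLC1A2, are given with all controls only.

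The cytosolic complex and the coactivators of AHR had 0 DEGs among 5 genes tested, with a median log2 fold change of -0.17 against -0.01 for all genes. The adjusted p alone, which was under 0.05 for 5.07% of all genes tested, passed for HSP90AB1, the chaperone that holds AHR in the cytosol, at -0.48 (adjusted p = 0.0279), and for the coactivator NCOA2 at 0.64 (adjusted p = 0.0341), both short of the fold required and named after their values were seen. HSP90AB1 was at 389 to 550.2 TPM in controls and at 279.9 to 437 TPM with Sustanon. NCOA2 was at 16.2 to 27.03 TPM in controls and at 22.01 to 54.5 TPM with Sustanon. Both pairs of ranges overlap.

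Further genes that AHR is known to induce numbered 6, with 0 DEGs and a median of -0.02. SLC7A5, the amino acid transporter that brings kynurenine into cells, had 1.67 (SE 0.52, adjusted p = 0.0607 by edgeR), with 6.56 ± 3.21 TPM (SD, n = 8) in controls and 21.5 ± 14.8 TPM (SD, n = 8) with Sustanon, and the groups overlapped. GSTA1, a glutathione transferase, had -0.57 (adjusted p = 0.223). The 7 NRF2 targets and regulators, tested beside NQO1 because NRF2 drives it too, had 0 DEGs and a median of 0.09. GCLM, a subunit of the enzyme that starts glutathione synthesis, had 0.52 (adjusted p = 0.0558), and GCLC, the other subunit, -0.35 (adjusted p = 0.550). None of the 6 other bHLH-PAS proteins was a DEG, and among them HIF1A, which shares ARNT as a partner, had -0.05 (adjusted p = 0.882).

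The enzymes that turn tryptophan into kynurenine and its products, some of which are AHR ligands, had 2 DEGs among 4 tested, where 1.56% of all genes were DEGs. TDO2, the liver enzyme that takes the first step, rose with a log2 fold change of 1.01 (SE 0.29, adjusted p = 0.0385 by edgeR). It was at 746 to 1198 TPM in controls, with a median of 1006, and at 947 to 3200 TPM with Sustanon, with a median of 2225. KYAT1, an aminotransferase that makes kynurenic acid, fell by 1.83 on the log2 scale (SE 0.40, adjusted p = 0.0118 by edgeR), from 27.4 to 121 TPM in controls to 8.97 to 28.3 TPM with Sustanon. Its symbol was taken from the reference table of gene names. The 2 others had an adjusted p under 0.05, as 5.07% of all genes had, and a smaller fold, with 0.57 for HAAO (adjusted p = 0.0290) and 0.29 for KYAT3 (adjusted p = 0.0368). TDO2 and KYAT1 thus differed in direction, at the head and at a side branch of the same pathway.

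Other nuclear receptors reported to act on CYP1 genes had 0 DEGs among 6, with a median of -0.27. ESR1, the estrogen receptor, had -0.77 (adjusted p = 0.0265 by edgeR) and was at 2.22 to 6.17 TPM in controls and 1.74 to 3.16 TPM with Sustanon. An adjusted p under 0.05 was found for 5.07% of all genes tested. Of 3 other enzymes of skatole clearance tested, FMO5 was a DEG, where 1.56% of all genes were. It had -1.56 (SE 0.33, adjusted p = 0.0114 by edgeR), with 130.1 to 359 TPM in controls and 46.2 to 168 TPM with Sustanon. FMO5 belongs to a family of close relatives, among which shared reads may be split. CYP2A19 had the largest log2 fold change of the lists, -3.02 (SE 1.11), but ranged from 8.5 to 1755 TPM in controls alone and had an adjusted p of 0.116. CYP3A29 had 0.92 (SE 0.31, adjusted p = 0.0844).

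**Figure D5:**
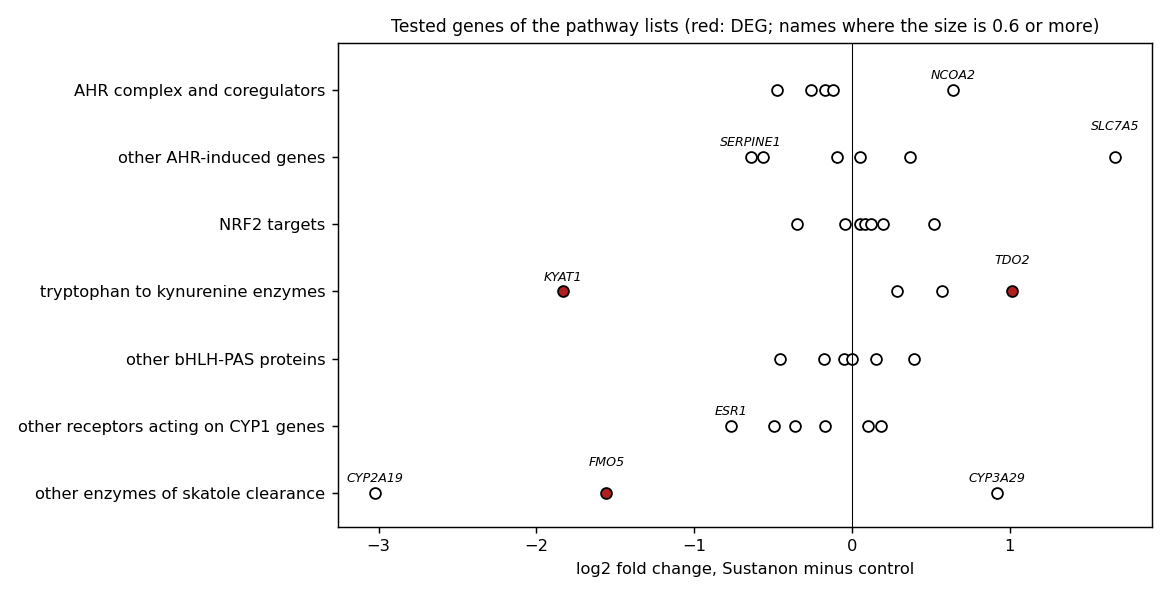
Log2 fold change between Sustanon and control of the 37 tested genes of the pathway lists, 1 line of points per list, with DEGs in red. The red points are TDO2 at 1.01, KYAT1 at -1.83 and FMO5 at -1.56.

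CYP1A2 is made mainly by hepatocytes around the central vein, so markers of liver zones and of other cells were read in the same fit. Of 4 pericentral markers tested, 1 was a DEG, where 1.56% of all genes were. This was SLC1A2, which rose, with a log2 fold change of 2.32 (SE 0.54, adjusted p = 0.0163 by edgeR) at 0.32 to 1.28 TPM in controls and 0.62 to 5.62 TPM with Sustanon, whereas GLUL had 0.17 and RHBG -0.83, neither with an adjusted p under 0.05. Of the 4 pericentral markers 2 had a higher and 2 a lower fitted level, and their median log2 fold change was -0.058. SLC1A2 was no DEG without the doubted controls, at 2.69 (adjusted p = 0.116), and was one with class as a covariate in those libraries, at 2.73 (adjusted p = 0.0366), by edgeR. The summed level of the pericentral list was 82.2 to 180.2 TPM in controls and 53.7 to 375 TPM with Sustanon. Of 5 periportal markers 0 were DEGs, 3 had a lower and 2 a higher fitted level, and the median log2 fold change was -0.27. An adjusted p under 0.05, which 5.07% of all genes had, was found for 2 of them, both lower, among them ARG1 at -0.85 (adjusted p = 0.0188 by edgeR), whereas ASS1 had 0.094 and HAL 0.084. The list summed to 10189 to 19809 TPM in controls and 6438 to 12279 TPM with Sustanon. The lists of hepatocyte, bile duct, endothelial, stellate and stromal, leukocyte and red blood cell markers had 0 DEGs. Stellate and stromal markers summed to 42.6 to 163 TPM in controls and 69.1 to 193 TPM with Sustanon, and leukocyte markers to 557 to 816 TPM and 495 to 725 TPM. No measured marker of these lists was at 0 counts in all libraries. The part of these markers in the results for AHR, CYP1A1, CYP1A2 and NQO1 was not tested.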

How the data were processed

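The authors made stranded poly-A libraries from liver RNA, used Skewer for trimming and STAR 2.5 for alignment to Sscrofa11.1, as their methods and the submitters' processing notes state. The counting tool is not given in the sources used here. The authors deposited raw read counts for each gene in each library. A second deposited table holds log2 values of TPM plus a pseudocount of 1, which were converted back to TPM. Groups came from the sample labels. Counts were fitted in R 4.3.3 with edgeR 4.0.16 (filterByExpr, TMM, quasi-likelihood test, two-sided, Benjamini-Hochberg adjustment over all genes tested), in 1 fit of the 3 treatments over 24 libraries, in 1 of the 9 groups for effects by class, and in 1 of the 16 libraries without Sustanon. A DEG had a log2 fold change of at least 1 in either direction, as in the study, and an adjusted p under 0.05, where the study's text names a p-value of that size with no adjustment. Values by class, the ARNT level, the AHR to ARNT ratio, the likeness to CYP1A1 and the list genes in libraries without the 3 doubted controls were added after seeing the data. CPM and log2 CPM used library sizes scaled by TMM factors, and log2 CPM a prior count of 2. DESeq2 1.42.0, the study's tool, limma 3.58.1 on the deposited log2 values, RLE normalization, other filters, other library sets and each library left out were tried. The scripts were tested on simulated data.

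The members and lists were chosen with earlier results of these data known. Named genes included the members, list genes called in any comparison, and the 5 genes with the highest and the 5 with the lowest correlation with CYP1A1. Other list genes and markers that are named were chosen after their values were seen. Listed genes without a row were not analysed here, and a few list genes are not reported here singly. Coordinates are those of the RefSeq annotation of Sscrofa11.1, in which 5 of the 6 genes were matched. Of the 13463 genes, 3779 had no deposited symbol. Libraries are separate pigs. Intervals are 1.96 standard errors to each side.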

Additional observations from a re-analysis of the deposited data

How the results depend on the processing

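No paired analysis was possible because every pig number occurs once. The count of DEGs between Sustanon and control was 420 with no fold threshold, 0 without the 3 doubted controls, and 70 to 175 with each library left out. Between Myodin and control it was 5 in castrated boars and sows alone and 0 with each library left out. Between Sustanon and Myodin it was 75 by DESeq2, 11 with no count filter, 55 with no fold threshold, 8 without the 3 doubted controls, 96 with class as a covariate, 88 with both of these changes (chosen after seeing the data), 115 in castrated boars and sows, 5 with these 2 treatments alone, and 0 to 115 with each library left out. Between uncastrated and castrated boars it was 74 by DESeq2, 7 in 23 libraries (without control castrated boar 15), 5 in 21, 58 in all 24 with treatment as a term, and 7 to 65 with each left out. Between sows and castrated boars it was 4 by DESeq2, 11 in 21 libraries and 0 with each left out. For the difference in Sustanon effects it was 40 by DESeq2, 0 in 21 libraries and 0 to 11 with each left out. The cause was not tested.

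Changes of sign met only log2 values that were not called. For ARNT, the Myodin value was -0.064 by limma, -0.031 in 21 libraries with class as a covariate and -0.11 to 0.080 with each library left out, and Sustanon against Myodin gave 0.020 by limma and -0.14 to 0.049. CYP1B1 in Sustanon against control was -0.00387 in 21 libraries and -0.00908 to 0.25 with each left out. Between uncastrated and castrated boars CYP1A1 was -0.31 in all 24 libraries, and CYP1A2 -0.91 to 0.16 with each left out. Between sows and castrated boars, CYP1A1 was -0.023 in 23 libraries and -0.32 in all 24, CYP1A2 0.25 and NQO1 -0.074 in all 24, and CYP1B1 -0.041 in 21; with each left out these 4 spanned -0.16 to 0.39, -0.61 to 0.0083, -0.15 to 0.18 and -0.011 to 0.37. In the difference of Sustanon effects, CYP1B1 was -0.029 in 21 libraries, AHR -0.87 to 0.020 and NQO1 -0.47 to 0.45 with each left out.

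Groups of 2 or 3 pigs limit every value by class, and the low counts of CYP1B1 limit its precision. A permutation test for members under the count filter was not run, as all 6 passed. No outlying library was found by Dixon's test in 36 sets of values, those of the 6 genes in groups of 5 to 8 libraries.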
